A study of Mus musculus with 6 samples.

Results

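The macrophage and myeloid genes described here were 37 genes chosen by name for what they encode: lineage receptors and transcription factors, leukocyte surface proteins, activating receptors and their adaptors, C1q, the phagocyte oxidase, lysosomal proteins, scavenger and pattern recognition receptors, and genes of activated macrophages. The choice was made with earlier results of these data known. The genes were taken from a table of 20173 genes counted in 6 RNA-Seq libraries of primary sympathetic neuron cultures. Of the 37 genes, 36 were matched by symbol, and Clec7a was not analysed here. Of the 36, 26 reached a CPM (count scaled to the library's total) of at least 1 in at least 3 libraries and were tested, and 10 did not (Csf1r, Spi1, Laptm5, Coro1a, Fcgr1, Cd163, Cd14, Tlr2, Ly86 and Aif1).

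RNA-Seq was performed to identify programs and secreted factors that depend on Slit2, the gene of a secreted axon guidance ligand, in sympathetic neurons. The 3 control libraries, called SLIT2f/f in the sample labels, came from Slit2fl/fl mice, which carry the floxed Slit2 allele without Cre. The 3 libraries called SLIT2-knockout came from Slit2th mice, in which the same floxed allele is deleted by Cre expressed under the promoter of Th (tyrosine hydroxylase), so that deletion is limited to cells in which that promoter is or was active. By the study's RNA-Seq method, all mice were 3-week-old males, and cells of their sympathetic chains were kept for 4 to 5 days in neural medium with B27 before RNA was taken; the isolation protocol to which that method refers names dorsal root neurons, so the cultured tissue is not certain. The labels number the libraries of each group 1 to 3 and name no animal, litter or pool.

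Macrophages descend from hematopoietic precursors or from the yolk sac, live in most tissues including peripheral nerves and ganglia, and clear debris after nerve injury. Their survival depends on the receptor Csf1r, their identity on the transcription factor PU.1 (encoded by Spi1), and their uptake of particles on Fc, complement and scavenger receptors. Particles taken up are broken down in lysosomes and exposed to the oxidase encoded by Cybb and Cyba.

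Total counts were 1533367 to 3155406 in Slit2fl/fl against 1255939 to 1999485 in Slit2th, so that 3 counts, taken as the floor of detection, were worth 0.961 normalized CPM in the deepest library (Slit2fl/fl replicate 1) and 2.65 in the shallowest (Slit2th replicate 1). Reads were not tagged by molecule, and intervals and floors below reflect the error of counting alone. Slit2 itself had 139, 85 and 77 counts in the Slit2fl/fl libraries against 17, 24 and 27 in the Slit2th libraries, lower in all 3 Slit2th libraries. Both libraries numbered 1 stood apart: over all tested genes, Pearson's r of log2 CPM was 0.903 to 0.956 among the other 4 libraries, 0.779 to 0.853 between Slit2fl/fl replicate 1 and the other 5, and 0.805 to 0.860 between Slit2th replicate 1 and the other 5. No source used here says that the libraries came from separate animals or cultures, so p-values measure the spread between these libraries only. Results that rest on those libraries are given with and without them, and values of a group stand in the order of replicates 1, 2 and 3.

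Macrophage-related transcripts were present at low levels in every library, and their summed level was higher in all 3 Slit2th libraries. Leaving aside Spp1, Lgals3 and Gpnmb, which many non-myeloid cells express, the other 33 genes summed to 220.3, 117 and 69.9 CPM in replicates 1, 2 and 3 of Slit2fl/fl and to 918, 240.0 and 314 CPM in Slit2th replicates 1, 2 and 3. The lowest Slit2th library thus stood above the highest Slit2fl/fl library, and Slit2th replicate 1 stood above all others. Much of the sum in that library came from Lyz2, Aif1, Pf4 and C1qa, 4 genes singled out after their values were seen, which gave 69.1% (exact binomial 95% interval 66.2 to 71.9) of the 33 genes' counts there and 22.1% to 38.9% in the other 5 libraries. The remaining 29 genes summed to 172, 71.3 and 49.5 CPM in Slit2fl/fl against 283, 160 and 217 CPM in Slit2th, so that without those 4 genes Slit2th replicate 2 fell below Slit2fl/fl replicate 1. In RNA of whole cultures, fewer cells of a type and less RNA per cell cannot be told apart.

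**Figure D1:**
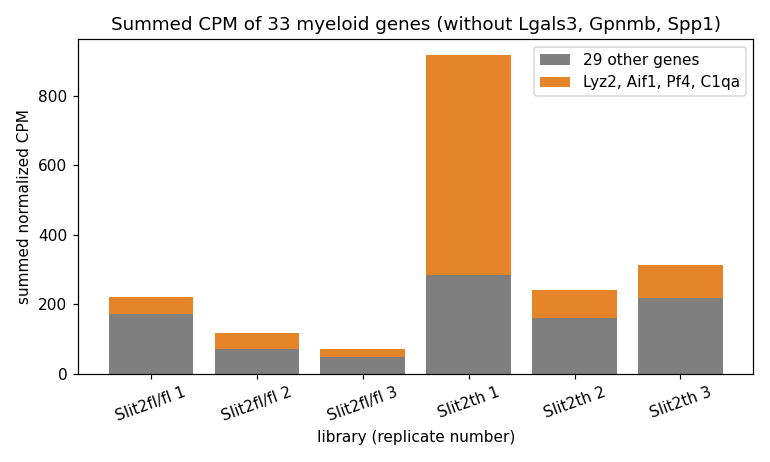
Summed normalized CPM of 33 myeloid genes in each of the 6 libraries (all analysed genes but Lgals3, Gpnmb and Spp1), with each bar split into Lyz2, Aif1, Pf4 and C1qa (orange) and the other 29 genes (grey). The bar of Slit2th replicate 1 reaches 918 CPM, of which the 4 genes make up 635 CPM, while the other 5 bars end between 69.9 and 314 CPM.

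Of the 26 tested genes, the log2 fold change (Slit2th over Slit2fl/fl, given below with its standard error, SE) was above 0 in 21 and below 0 in 5, with a median of 1.92, against -0.05 over all 12152 tested genes. In the quasi-likelihood test of edgeR, with an unadjusted p under 0.05, 13 were higher and 0 lower in Slit2th, where 3.99% of all tested genes were higher and 6.78% lower. DESeq2 gave 12 higher at that level, where 3.9% of all genes were higher. Limma-voom with sample weights gave 16 higher and 2 lower, where 979 of all 12152 genes (8.06%) were higher and 1287 lower. The normalized CPM of the groups did not overlap in 13 genes, all higher in Slit2th, where 8.74% of all tested genes were higher without overlap and 9.72% lower. Of these 13 genes, 12 were among the 13 with an unadjusted p under 0.05, the exceptions being Spp1 on the one side and C1qa on the other. The list was chosen with earlier results of these data known. Its counts and median, set beside those of all tested genes, are therefore a description and not a test.

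No myeloid gene passed an adjusted p of 0.05 (Benjamini-Hochberg) with edgeR (quasi-likelihood test), nor did any of the 12152 genes (0% called, lowest adjusted p 0.357), while 1309 of them had an unadjusted p under 0.05 and 34 passed in DESeq2. Two-sided exact permutation tests of single genes cannot go below p = 0.10 with 3 libraries against 3. The filter on low values bears on the counts of genes: Ptprc and Mrc1 passed it only through the Slit2th libraries and so had to be higher there. When a CPM of at least 1 was required in every library, 12 of the genes were tested, of which Lyz2, Ctss, Lcp1 and Pf4 were higher at an unadjusted p under 0.05 (4 of the 12, where 4.13% of all 9674 genes tested in that way were higher).

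The 26 tested genes differed in which library was highest. Slit2th replicate 1 was highest in 9 of them (Cd53, Tyrobp, Fcgr3, C1qa, C1qb, Lyz2, Ctss, Msr1 and Pf4), where it was highest in 17.3% of all tested genes. Slit2fl/fl replicate 1 was highest in 6 (Fcer1g, Trem2, Cyba, Cd68, Lgals3 and Gpnmb), where it was highest in 29.8% of all tested genes. Slit2th replicate 2 or 3 was highest in 10, and Slit2fl/fl replicate 3 in Cx3cr1. Without Slit2th replicate 1 the median log2 fold change of the tested genes was 0.95 and without replicate 1 of both groups 1.52, against -0.08 and -0.02 over all genes tested in those fits. In the fit without replicate 1 of both groups, which leaves 2 libraries against 2, Cybb, Msr1 and Spp1 passed an adjusted p of 0.05 in edgeR's test as higher in Slit2th and 0 of the 22 tested genes as lower, where 0.767% of all 11473 genes passed as higher and 2.52% as lower.

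**Figure D2:**
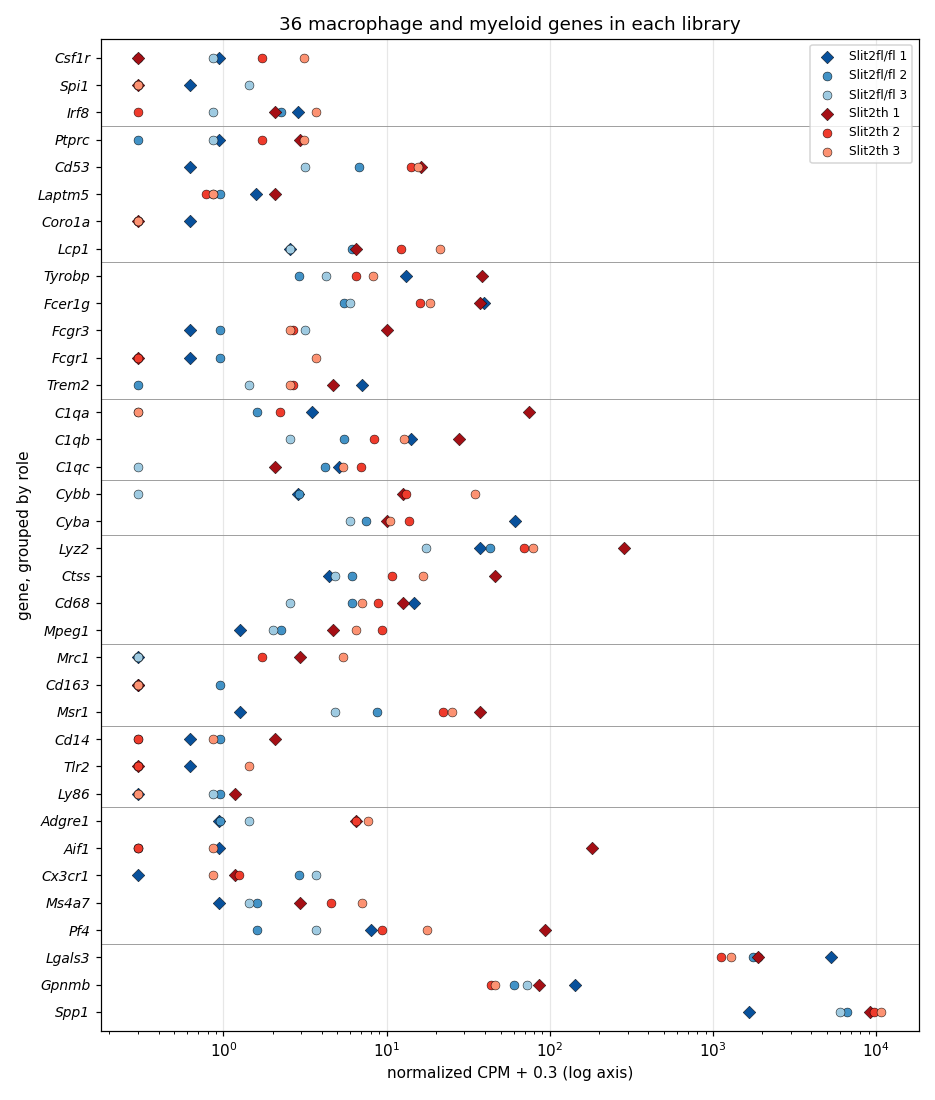
Normalized CPM + 0.3 of 36 myeloid genes (log axis) in the 6 libraries, with genes in the order of their roles, blue for Slit2fl/fl, red for Slit2th and diamonds for the replicates numbered 1; points at 0.3 are genes with 0 counts. Aif1 lies at 182 CPM in Slit2th replicate 1 and at 0 to 0.640 CPM elsewhere, while the red points of Adgre1, Msr1 and Cd53 lie together, to the right of the blue points.

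Per kilobase of exon, the levels spanned a wide range. In Slit2th, Spp1 (mean 5988 CPM per kb) and Lgals3 (774 CPM per kb) were far above the next genes, Lyz2 (109.7 CPM per kb), Pf4 (55.5 CPM per kb) and Aif1 (39.7 CPM per kb). Fcer1g and Tyrobp followed at 27.0 and 26.01 CPM per kb in Slit2th and stood at 19.1 and 9.69 CPM per kb in the controls. At the low end, Csf1r stood at 0.0698 CPM per kb in Slit2fl/fl against 0.246 CPM per kb in Slit2th, and Ptprc at 0.0220 and 0.126 CPM per kb. The levels of Slit2th are means that include replicate 1, which had 206 counts of Aif1 against 0 and 1 in replicates 2 and 3.

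Windows of 300 bases around the transcription start (250 bases before to 50 after, RefSeq sequence, GRCm38.p6) were given for 30 of the 37 genes, in 38 windows. The motifs searched on both strands were GAGGAA, the core of sites of PU.1 and other ETS factors, TGANTCA, the AP-1 site, and CACGTG, the E-box of the MiT family. GAGGAA or its reverse complement was in at least 1 window of 17 of the 30 genes (19 of 38 windows), and in 28.3% of all 32851 windows. TGANTCA was in 5 of the 38 windows, and in 7.81% of all windows. CACGTG was in 0 of the 38 windows, and in 7.15% of all windows. The windows of 4 of the most abundant genes are printed 5′ to 3′ to show these letters in place, with motif matches in capitals. The windows of Lgals3 and Fcer1g, also among the most abundant, and a further window of Spp1 are not printed and hold none of the motifs. Lyz2 (chr10:117282223-117282522, minus strand) holds none of the motifs, Pf4 (chr5:90772185-90772484, plus strand) and Spp1 (chr5:104434861-104435160, plus strand) hold GAGGAA, in Pf4 on the opposite strand as TTCCTC, and Gpnmb (chr6:49036268-49036567, plus strand) holds an AP-1 match.
Lyz2: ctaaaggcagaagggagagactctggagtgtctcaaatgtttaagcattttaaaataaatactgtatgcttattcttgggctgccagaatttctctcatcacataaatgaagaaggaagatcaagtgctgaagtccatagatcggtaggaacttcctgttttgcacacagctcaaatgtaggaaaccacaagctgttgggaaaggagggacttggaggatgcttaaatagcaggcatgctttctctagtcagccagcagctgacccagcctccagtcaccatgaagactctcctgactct
Pf4: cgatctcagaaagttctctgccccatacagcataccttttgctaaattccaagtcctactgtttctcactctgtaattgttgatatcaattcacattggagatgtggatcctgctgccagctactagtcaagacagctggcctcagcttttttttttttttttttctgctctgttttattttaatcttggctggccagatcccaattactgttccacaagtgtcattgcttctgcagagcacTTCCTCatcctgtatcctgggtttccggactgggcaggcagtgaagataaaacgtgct
Spp1: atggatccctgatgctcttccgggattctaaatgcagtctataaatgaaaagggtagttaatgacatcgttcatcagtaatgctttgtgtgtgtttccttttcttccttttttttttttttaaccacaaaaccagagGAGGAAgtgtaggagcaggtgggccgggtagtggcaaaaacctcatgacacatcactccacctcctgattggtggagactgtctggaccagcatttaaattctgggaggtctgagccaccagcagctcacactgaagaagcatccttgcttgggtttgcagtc
Gpnmb: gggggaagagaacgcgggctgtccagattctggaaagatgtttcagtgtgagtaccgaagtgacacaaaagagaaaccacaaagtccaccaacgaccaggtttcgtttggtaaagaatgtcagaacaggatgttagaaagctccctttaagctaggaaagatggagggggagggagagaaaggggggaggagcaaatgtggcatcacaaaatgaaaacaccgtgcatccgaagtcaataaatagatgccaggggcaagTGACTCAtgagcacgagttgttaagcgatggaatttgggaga

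The defining genes of the macrophage lineage were at or near 0 in every library. Csf1r, the receptor of the growth factors Csf1 and interleukin 34, had 2, 0 and 1 counts in the Slit2fl/fl libraries against 0, 3 and 5 in the Slit2th libraries. Spi1, which encodes PU.1, had 1, 0 and 2 counts in the Slit2fl/fl libraries against 0, 0 and 0 in the Slit2th libraries. Irf8, a transcription factor of monocyte development, was tested and had 8, 3 and 1 counts in the Slit2fl/fl libraries against 2, 0 and 6 in the Slit2th libraries, with a log2 fold change of -0.07 ± 1.05 (SE) that changed sign in several alternatives. Slit2th replicate 1, the library with the most counts of Lyz2, Pf4, C1qa and Aif1, thus had 0 counts of Csf1r and of Spi1, which allows up to 2.65 CPM of each. Exons of Csf1r overlap those of Hmgxb3 on the opposite strand, and the strand setting of the counting is not given in the sources used here. Csf1r exceeded 3 counts in Slit2th replicate 3 only and Spi1 in no library, so that the label macrophage rests here on the effector genes described next.

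Among the leukocyte surface and actin genes, Cd53 and Lcp1 were higher in Slit2th. Cd53 (ENSMUSG00000040747, chromosome 3, 106759921 to 106790149, GRCm38, as for all positions of genes given here), a tetraspanin of leukocytes, stood at 0.320, 6.48 and 2.84 CPM in the Slit2fl/fl libraries against 15.9, 13.8 and 15.2 CPM in the Slit2th libraries. All 3 Slit2th libraries lay close together and above every Slit2fl/fl library, with a log2 fold change of 2.31 ± 0.79 (SE), unadjusted p = 0.0166 and adjusted p = 0.422 by edgeR's quasi-likelihood test. Lcp1 (ENSMUSG00000021998, chromosome 14, 75131101 to 75230842), the actin-bundling protein L-plastin, stood at 2.24, 5.83 and 2.27 CPM in the Slit2fl/fl libraries against 6.18, 11.9 and 20.9 CPM in the Slit2th libraries. Its groups did not overlap, although Slit2th replicate 1 stood only just above Slit2fl/fl replicate 2, and its log2 fold change was 1.96 ± 0.65 (SE), with unadjusted p = 0.0142 and adjusted p = 0.422 by the same test. Ptprc, the phosphatase CD45 of all nucleated blood cells, had 2, 0 and 1 counts in the Slit2fl/fl libraries against 3, 3 and 5 in the Slit2th libraries, and Laptm5 and the actin regulator Coro1a had at most 4 counts in any library.

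Of the activating receptors and their adaptors, Tyrobp, Fcer1g, Fcgr3 and Trem2 were each highest in a library numbered 1. Tyrobp (ENSMUSG00000030579, chromosome 7, 30413760 to 30417585), the signaling adaptor DAP12, stood at 12.8, 2.59 and 3.98 CPM in the Slit2fl/fl libraries against 37.9, 6.20 and 7.90 CPM in the Slit2th libraries. Fcer1g (ENSMUSG00000058715, chromosome 1, 171229572 to 171234365), the common gamma chain of Fc receptors, stood at 39.1, 5.19 and 5.69 CPM in the Slit2fl/fl libraries against 37.1, 15.7 and 18.1 CPM in the Slit2th libraries. In both genes replicate 1 of each group was above replicates 2 and 3 of either group, the groups overlapped, and the log2 fold changes were 1.31 ± 0.83 (SE) and 0.45 ± 0.77 (SE). Without Slit2th replicate 1 they were 0.06 and -0.03, and without replicate 1 of both groups 1.06 and 1.61, where edgeR gave an adjusted p of 0.442 and 0.0959, and both remaining Slit2th libraries exceeded both remaining Slit2fl/fl libraries. Fcgr3, a low-affinity receptor for IgG, had 1, 1 and 5 counts in the Slit2fl/fl libraries against 11, 5 and 4 in the Slit2th libraries, and the lipid receptor Trem2, which signals through Tyrobp, 21, 0 and 2 counts in the Slit2fl/fl libraries against 5, 5 and 4 in the Slit2th libraries. Neither separated the groups, and the log2 fold change of Trem2 was 0.02 ± 1.18 (SE). Fcgr1, the high-affinity IgG receptor, had 6 counts in Slit2th replicate 3 and at most 1 in any other library.

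C1q, the recognition molecule of the classical complement pathway, is assembled from 3 chains whose genes lie side by side on the minus strand of chromosome 4 (C1qb at 136880129 to 136886187, C1qc at 136889804 to 136893065 and C1qa at 136895917 to 136898803, GRCm38). C1qa stood at 3.20, 1.30 and 0 CPM in the Slit2fl/fl libraries against 74.1, 1.91 and 0 CPM in the Slit2th libraries, C1qb at 13.8, 5.19 and 2.27 CPM in the Slit2fl/fl libraries against 27.4, 8.11 and 12.4 CPM in the Slit2th libraries, and C1qc at 4.80, 3.89 and 0 CPM in the Slit2fl/fl libraries against 1.77, 6.68 and 5.08 CPM in the Slit2th libraries. Slit2th replicate 1 was thus high in C1qa and C1qb and had 2 counts of C1qc. Against Slit2th replicates 2 and 3 together, replicate 1 had 71.7 times (95% interval 27.0 to 269) the CPM of C1qa, 2.71 times (95% interval 1.64 to 4.46) that of C1qb and 0.297 times (95% interval 0.0339 to 1.20) that of C1qc (exact conditional intervals). Of the 3 chains' counts, C1qa made up 71.8% (exact binomial 95% interval 62.7 to 79.7) in Slit2th replicate 1, and 14.7%, 12.5% and 0% in Slit2fl/fl as well as 11.4% and 0% in Slit2th replicates 2 and 3. The upper limits of those 5 shares were 25.4% in Slit2fl/fl replicate 1, 38.3% in replicate 2 and 60.2% in replicate 3, which had 4 counts, and 26.7% and 11.2% in Slit2th replicates 2 and 3. The log2 fold change of C1qa was 3.82 ± 1.68 (SE) with all libraries, with an adjusted p of 0.462 by edgeR's test, and -0.68 without Slit2th replicate 1, while those of C1qb and C1qc were 1.09 ± 0.71 (SE) and 0.63 ± 0.95 (SE), and 0.48 and 0.96 without that library.

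**Figure D3:**
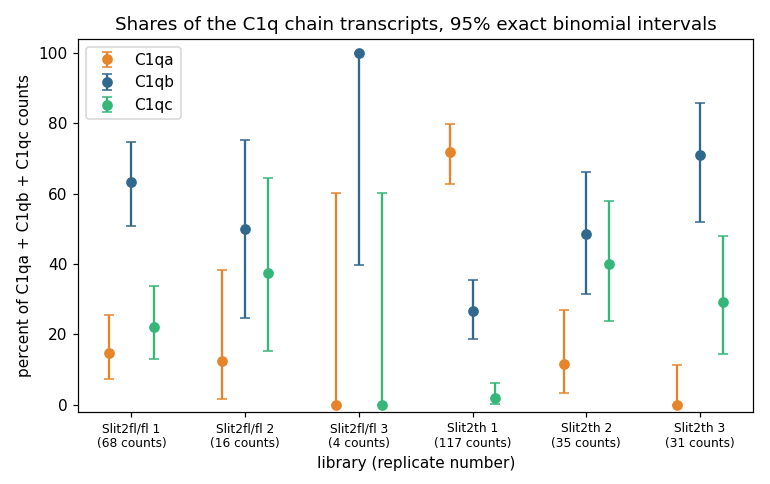
Percent of the summed C1qa, C1qb and C1qc counts that each chain gave in each library, with exact binomial 95% intervals and the summed counts below each library's name. In Slit2th replicate 1 C1qa gives 71.8% and C1qc 1.71% of 117 counts, while C1qb gives the largest share in the other 5 libraries.

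The membrane subunits of the phagocyte oxidase differed in pattern. Cybb (ENSMUSG00000015340, chromosome X, 9435252 to 9487771), the catalytic subunit, stood at 2.56, 2.59 and 0 CPM in the Slit2fl/fl libraries against 12.4, 12.9 and 34.4 CPM in the Slit2th libraries. All Slit2th libraries exceeded all Slit2fl/fl libraries, replicate 3 most, with a log2 fold change of 3.44 ± 0.83 (SE), unadjusted p = 0.00250 and adjusted p = 0.422 in edgeR. It passed in DESeq2 (adjusted p = 0.0123) and in edgeR's test without replicate 1 of both groups (log2 fold change 4.17, adjusted p = 0.0147). Cyba, its partner subunit, which many cell types express, stood at 60.5, 7.13 and 5.69 CPM in the Slit2fl/fl libraries against 9.71, 13.4 and 10.2 CPM in the Slit2th libraries. Slit2fl/fl replicate 1 was far above the other 5 libraries, and the log2 fold change of -1.16 ± 0.84 (SE) became 0.87 without replicate 1 of both groups. Of the counts of both subunits, Cybb gave 4.06%, 26.7% and 0% in Slit2fl/fl against 56.0%, 49.1% and 77.2% in Slit2th.

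Among the lysosomal and granule genes, Lyz2, Ctss and Mpeg1 were higher in all 3 Slit2th libraries. Lyz2 (ENSMUSG00000069516, chromosome 10, 117277331 to 117282321), the lysozyme of macrophages and the most abundant myeloid-restricted transcript here, stood at 37.1, 42.8 and 17.1 CPM in the Slit2fl/fl libraries against 285, 69.2 and 79.0 CPM in the Slit2th libraries, or 32.3 ± 13.5 CPM for Slit2fl/fl against 144 ± 122 CPM for Slit2th (mean ± SD, n = 3). The groups did not overlap, and Slit2th replicate 1 had 3.87 times (95% interval 3.29 to 4.55) the CPM of replicates 2 and 3 together. Its log2 fold change was 2.15 ± 0.62 (SE), with unadjusted p = 0.00717 and adjusted p = 0.422 by the quasi-likelihood test of edgeR, and 1.20 without Slit2th replicate 1. How reads that also match its close paralog Lyz1 were counted is not given in the sources used here.

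Ctss (ENSMUSG00000038642, chromosome 3, 95526786 to 95556403), the lysosomal protease cathepsin S, stood at 4.16, 5.83 and 4.55 CPM in the Slit2fl/fl libraries against 45.9, 10.5 and 16.4 CPM in the Slit2th libraries. Its Slit2th libraries stood in the same order as for Lyz2, with Slit2th replicate 1 at 3.48 times (95% interval 2.32 to 5.23) the CPM of replicates 2 and 3. The log2 fold change of Ctss was 2.30 ± 0.63 (SE) and 1.47 without that library (adjusted p = 0.422 with all libraries, edgeR's quasi-likelihood test). Mpeg1, the pore-forming perforin-2, had 3, 3 and 3 counts in the Slit2fl/fl libraries against 5, 19 and 11 in the Slit2th libraries, and here Slit2th replicate 1 was the lowest of its group. Its log2 fold change was 2.12 ± 0.66 (SE), with unadjusted p = 0.0102 and adjusted p = 0.422 by edgeR's test. Cd68, a lysosomal glycoprotein used as a general macrophage marker, stood at 14.4, 5.83 and 2.27 CPM in the Slit2fl/fl libraries against 12.4, 8.59 and 6.77 CPM in the Slit2th libraries, with overlapping groups and a log2 fold change of 0.24 ± 0.67 (SE).

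Of the scavenger and endocytic receptors, Msr1 and Mrc1 were higher in all 3 Slit2th libraries. Msr1 (ENSMUSG00000025044, chromosome 8, 39581685 to 39642673), the class A scavenger receptor, stood at 0.961, 8.43 and 4.55 CPM in the Slit2fl/fl libraries against 37.1, 21.9 and 24.8 CPM in the Slit2th libraries, or 4.64 ± 3.73 CPM for Slit2fl/fl against 27.9 ± 8.03 CPM for Slit2th (mean ± SD, n = 3). The groups did not overlap, the log2 fold change was 2.65 ± 0.69 (SE) with unadjusted p = 0.00380 and adjusted p = 0.422 by edgeR's quasi-likelihood test, and the adjusted p was 0.0494 in DESeq2, 0.0453 in limma-voom and 0.0448 in edgeR's test without replicate 1 of both groups. Mrc1 (ENSMUSG00000026712, chromosome 2, 14229392 to 14332057), the mannose receptor CD206 of tissue macrophages, had 0, 0 and 0 counts in the Slit2fl/fl libraries against 3, 3 and 9 in the Slit2th libraries. Set against a floor of 3 counts over the Slit2fl/fl group, it was at least 6.42-fold higher in Slit2th, a description only, since it passed the filter through the Slit2th libraries alone. Cd163, the hemoglobin scavenger receptor that marks many Mrc1-expressing macrophages, had 1 count in all 6 libraries together. The pattern recognition genes Cd14, Tlr2 and Ly86 had at most 2 counts in any library, under the floor.

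Adgre1 (ENSMUSG00000004730, chromosome 17, 57358691 to 57483527), which encodes F4/80, a surface marker of mouse macrophages, stood at 0.640, 0.648 and 1.14 CPM in the Slit2fl/fl libraries against 6.18, 6.20 and 7.34 CPM in the Slit2th libraries. It was about equal in the 3 Slit2th libraries and above every Slit2fl/fl library, with a log2 fold change of 2.95 ± 0.67 (SE), unadjusted p = 0.00168 and adjusted p = 0.422 in edgeR, the lowest unadjusted p of the 26 genes. Ms4a7, a membrane protein of tissue macrophages, had 2, 2 and 2 counts in the Slit2fl/fl libraries against 3, 9 and 12 in the Slit2th libraries, with a log2 fold change of 2.18 ± 0.75 (SE) and an adjusted p of 0.422 by the same test. Cx3cr1, the fractalkine receptor, had 0, 4 and 6 counts in the Slit2fl/fl libraries against 1, 2 and 1 in the Slit2th libraries and a log2 fold change of -1.14 ± 1.23 (SE), with overlapping groups.

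Pf4 and Aif1 were highest in Slit2th replicate 1. Pf4 (ENSMUSG00000029373, chromosome 5, 90772435 to 90773383), the chemokine Cxcl4 of platelets and of tissue macrophages, stood at 7.69, 1.30 and 3.41 CPM in the Slit2fl/fl libraries against 93.5, 9.06 and 17.5 CPM in the Slit2th libraries. The groups did not overlap, replicate 1 had 7.24 times (95% interval 5.12 to 10.3) the CPM of Slit2th replicates 2 and 3, and the log2 fold change of 3.15 ± 0.94 (SE) (adjusted p = 0.422, edgeR's quasi-likelihood test) was 1.59 without that library. The other platelet and erythroid genes counted had at most 5 counts in any library. Aif1 (ENSMUSG00000024397, chromosome 17, 35170991 to 35176068), which encodes the calcium-binding protein Iba1, had 2, 0 and 0 counts in the Slit2fl/fl libraries against 206, 0 and 1 in the Slit2th libraries. Slit2th replicate 1 had 624 times (95% interval 210.5 to 3049) the CPM of the other 5 libraries together, and since only that library reached a CPM of 1, the gene was not tested.

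The ratio of Slit2th replicate 1 to replicates 2 and 3 thus differed widely between genes. Its CPM over theirs was 0.919 times (95% interval 0.337 to 2.17) for Adgre1, 1.10 times (95% interval 0.607 to 1.89) for Cd53 and 1.59 times (95% interval 1.08 to 2.32) for Msr1. For Mpeg1 it was 0.569 times (95% interval 0.172 to 1.48), for Cybb 0.543 times (95% interval 0.285 to 0.960) and for Lcp1 0.385 times (95% interval 0.149 to 0.842). For Tyrobp it was 5.44 times (95% interval 3.28 to 9.15) and for Fcgr3 4.17 times (95% interval 1.57 to 11.4), while that of Aif1 was 703 times (95% interval 125 to 27906). Of the genes with at least 30 counts in Slit2th replicate 1, 68 of 4708 had at least 10 times the CPM of every other library there, Aif1 and C1qa among them, against 36 of 7773 in Slit2fl/fl replicate 1 and 0, 1, 0 and 0 in Slit2fl/fl replicates 2 and 3 and Slit2th replicates 2 and 3. The part that this library-wide difference had in the values of the myeloid genes was not tested.

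**Figure D4:**
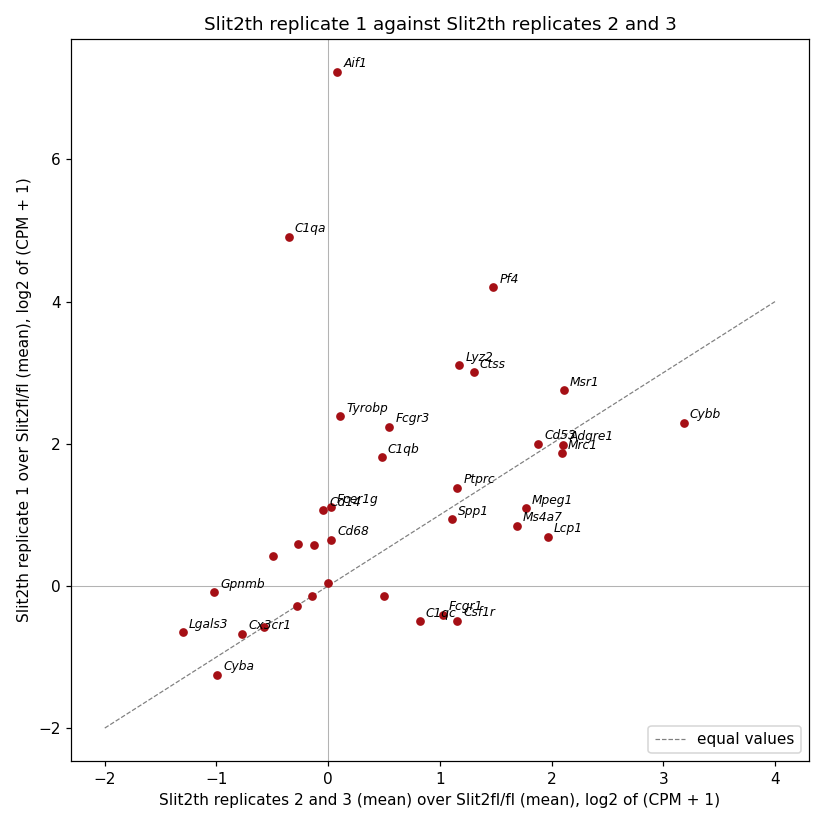
For 36 myeloid genes, log2 of (CPM + 1) in Slit2th replicate 1 over the Slit2fl/fl mean against the same for the mean of Slit2th replicates 2 and 3; the dashed line marks equal values. Aif1 (7.24 against 0.08) and C1qa (4.91 against -0.36) lie far above the line, Pf4, Lyz2, Ctss and Tyrobp lie above it, and Adgre1, Mrc1 and Cd53 lie near it.

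Replicates 2 and 3 alone, compared between the groups as pooled CPM with exact conditional intervals that cover counting error only, gave ratios (Slit2th over Slit2fl/fl) above 1 for most effector genes. Cybb was at 18.8 times (95% interval 7.08 to 70.5), Adgre1 at 7.40 times (95% interval 2.27 to 38.2) and Pf4 at 5.34 times (95% interval 2.51 to 13.0). Ms4a7 was at 4.48 times (95% interval 1.51 to 17.96), Mpeg1 at 4.27 times (95% interval 1.75 to 12.5) and Lcp1 at 4.07 times (95% interval 2.22 to 8.07). Lyz2 was at 2.53 times (95% interval 2.004 to 3.23), Msr1 at 3.66 times (95% interval 2.26 to 6.20) and Fcer1g at 3.08 times (95% interval 1.81 to 5.52). Cd53, at 3.19 times (95% interval 1.78 to 6.07), and Ctss, at 2.56 times (95% interval 1.45 to 4.73), were also above 1. Intervals included 1 for C1qa, at 1.71 times (95% interval 0.245 to 18.9), and Fcgr3, at 1.28 times (95% interval 0.407 to 4.37). The same held for Cd68, at 1.97 times (95% interval 0.997 to 4.11), and Trem2, at 3.84 times (95% interval 0.795 to 36.5). Cx3cr1 went the other way, at 0.256 times (95% interval 0.0453 to 0.995). Not every gene is listed here.

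**Figure D5:**
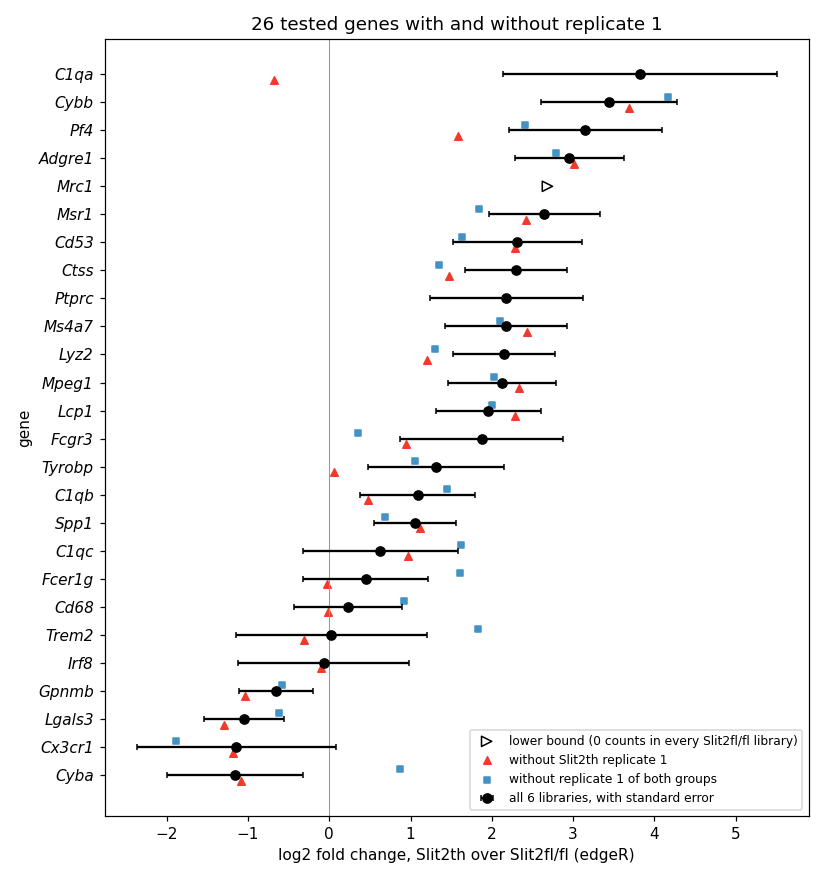
Log2 fold changes (Slit2th over Slit2fl/fl, edgeR) of the 26 tested genes, with standard errors for all 6 libraries (black), without Slit2th replicate 1 (red triangles) and without replicate 1 of both groups (blue squares, where the gene was still tested); Mrc1, with 0 counts in Slit2fl/fl, is at its lower bound. C1qa moves from 3.82 to -0.68 without Slit2th replicate 1, while Adgre1, Cybb, Mpeg1 and Lcp1 stay at 1.96 or higher in all 3 fits.

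The 3 genes of activation state, which neurons, glia, fibroblasts and other cells also express, differed from each other. Spp1 (ENSMUSG00000029304, chromosome 5, 104435118 to 104441050), the secreted matrix protein osteopontin, stood at 1669, 6620.1 and 5968 CPM in the Slit2fl/fl libraries against 9110.4, 9735 and 10758 CPM in the Slit2th libraries, or 4752 ± 2690.0 CPM for Slit2fl/fl against 9868 ± 832 CPM for Slit2th (mean ± SD, n = 3). The groups did not overlap, Slit2fl/fl replicate 1 was far below the other 5 libraries, and the log2 fold change was 1.05 ± 0.51 (SE), with unadjusted p = 0.0670 and adjusted p = 0.480 by the quasi-likelihood test of edgeR. Omitting both libraries numbered 1 gave 0.69 and an adjusted p of 0.0320 in edgeR, and omitting Slit2fl/fl replicate 1 alone gave 0.65.

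Lgals3 (ENSMUSG00000050335, chromosome 14, 47367751 to 47386160), the galactoside-binding lectin galectin-3, stood at 5275, 1769 and 1899.5 CPM in the Slit2fl/fl libraries against 1897, 1119 and 1298 CPM in the Slit2th libraries. Slit2fl/fl replicate 1 was the highest, Slit2th replicate 1 lay between Slit2fl/fl replicates 2 and 3, and the log2 fold change was -1.05 ± 0.49 (SE) (adjusted p = 0.473, edgeR's test). Gpnmb, a transmembrane glycoprotein of lysosome-rich cells, stood at 142, 60.3 and 72.2 CPM in the Slit2fl/fl libraries against 85.6, 43.4 and 45.7 CPM in the Slit2th libraries with a log2 fold change of -0.66 ± 0.45 (SE). Without replicate 1 of both groups, Lgals3 and Gpnmb were lower in both Slit2th libraries than in both Slit2fl/fl libraries, by log2 fold changes of -0.62 and -0.59 (adjusted p = 0.0617 and 0.242, edgeR's test), and without Slit2fl/fl replicate 1 alone these were -0.34 and -0.18. Because Spp1 and Lgals3 hold most of the counts of the 36 genes, the sum over all 36 was 1.49 times as high in Slit2th (ratio of group means), against 3.62 times for the other 33 genes, which was 2.05 times without Slit2th replicate 1 and 2.94 times without replicate 1 of both groups.

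Other genes of myeloid cells were less uniform. In 9 further lists with 97 genes, 89 were in the table and 43 were tested, with 26 positive and 17 negative log2 fold changes and a median of 0.53. That median was 0.24 without Slit2th replicate 1 and 0.02 without replicate 1 of both groups, where 36 were tested. Over all tested genes the medians of these 3 fits were -0.05, -0.08 and -0.02. At an unadjusted p under 0.05 in edgeR's test, 6 of the 43 were higher and 3 lower in Slit2th, where 3.99% of all tested genes were higher and 6.78% lower, so that the 3 lower are near the share over all genes. None passed the adjusted threshold in that test. Those higher were the integrin subunits Itgam and Itgb2, the inhibitory receptor Lilrb4a, Cd84, Ms4a6d and the fatty acid receptor Cd36, of which Itgam, Itgb2 and Ms4a6d are named after their values were seen, and Itgam passed the filter through the Slit2th libraries alone. Itgam, the CD11b chain, had 1, 1 and 0 counts in the Slit2fl/fl libraries against 2, 6 and 5 in the Slit2th libraries, and Cd36, which other cells also express, had 50, 36 and 46 counts in the Slit2fl/fl libraries against 120, 89 and 114 in the Slit2th libraries (log2 fold change 1.70 ± 0.45 (SE), adjusted p = 0.422, edgeR's test).

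Those lower were Arhgdib, Olfml3 and Il34. Arhgdib, a gene of hematopoietic cells, had 68, 16 and 17 counts in the Slit2fl/fl libraries against 4, 8 and 2 in the Slit2th libraries, and Olfml3, which microglia and stromal cells express, 691, 128 and 254 counts in the Slit2fl/fl libraries against 53, 101 and 68 in the Slit2th libraries. Il34, a ligand of Csf1r, had 876, 108 and 106 counts in the Slit2fl/fl libraries against 16, 79 and 41 in the Slit2th libraries (log2 fold change -2.44 ± 0.67 (SE), adjusted p = 0.422, edgeR's test), with Slit2fl/fl replicate 1 far above the others. The other ligand of that receptor, Csf1, named after its values were seen, had 72, 67 and 105 counts in the Slit2fl/fl libraries against 49, 106 and 102 in the Slit2th libraries, with overlapping groups. Ncf4, a cytosolic subunit of the oxidase, had 1, 2 and 1 counts in the Slit2fl/fl libraries against 327, 0 and 1 in the Slit2th libraries, high in Slit2th replicate 1 alone.

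Markers of other blood cells were near 0. The T and NK cell markers analysed (4 of 9 listed) summed to 0 to 12 counts in a library, the B cell markers (2 of 7) to 0 to 2, the neutrophil markers (4 of 9) to 0 to 12, with Ly6g at 0 throughout, and the mast cell markers (2 of 8) to 0 to 5. Of the dendritic cell markers, Zbtb46, a transcription factor of that lineage, had 4, 6 and 9 counts in the Slit2fl/fl libraries against 135, 7 and 16 in the Slit2th libraries, and the other dendritic markers together at most 6 counts in any library. Of the neuronal markers analysed (10 of 12 listed), 7 had under 10 counts in all 6 libraries together, and 3 were tested. In these cultures labelled as neurons, the 10 markers summed to 569, 161 and 179 CPM in Slit2fl/fl against 175, 177 and 167 CPM in Slit2th. Only Slit2fl/fl replicate 1 thus stood apart. Th, whose promoter drives Cre, had 0 counts in all 6 libraries. Glia and Schwann cell markers summed to 4597, 10638 and 11590 CPM in Slit2fl/fl against 19945, 13206 and 15378 CPM in Slit2th, and fibroblast markers to 2461 to 3450 CPM and 3280.4 to 4892 CPM. The glial sum was thus highest in Slit2th replicate 1 and lowest in Slit2fl/fl replicate 1, and its part in the values of the myeloid genes was not tested.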

How the data were processed

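RNA of 6 libraries, 3 Slit2fl/fl and 3 Slit2th, was sequenced after TruSeq library preparation. The authors aligned the reads with HISAT2 to mm10 (the submitters' processing notes name the build GRCm39) and deposited raw read counts per gene, whole numbers without normalization. Neither the program that counted reads, nor its handling of strand, nor its gene annotation is given in the sources used here. A choice of strand or of multi-mapped reads would affect overlapping genes and paralogs.

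From the deposited counts, edgeR 4.0.16 (R 4.3.3) kept genes that reached 1 CPM in 3 or more libraries, computed TMM factors and tested Slit2th against Slit2fl/fl by quasi-likelihood, with no covariate and with Benjamini-Hochberg adjustment over all 12152 genes. The procedure was also run on simulated data with the same spread for every gene and no library set apart. That setting is unlike these libraries, so the run does not show how well the procedure works here. The standard error is the size of the log2 fold change divided by the square root of F. Ratios of pooled CPM have exact conditional intervals and shares exact binomial (Clopper-Pearson) intervals at 95%. Alternatives used DESeq2 1.42.0, limma 3.58.1 (voom), other scalings and filters, the replicate number as a block, and fewer libraries. Positions and exon lengths came from GENCODE M21 (GRCm38), which held 20159 of the 20173 identifiers; the counts themselves carry no coordinates. Promoter sequences came from RefSeq (GRCm38.p6).

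The 37 genes, their grouping and the other lists were chosen with earlier results of these data known. Any of the 37 could be named, with at most 3 genes of each other list by mean CPM, Slit2, and the 10 tested genes with the largest ratio of Slit2th replicate 1 to the highest other library. Exceptions are marked. A gene that this rule names is not reported here.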

Additional observations from a re-analysis of the deposited data

How the results depend on the processing

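A single count was worth 0.320 to 0.883 CPM, so that genes under the floor of 3 counts were not detectable at this depth. Across 14 alternatives, the log2 fold changes of the 26 tested myeloid genes gave 336 values, of which 316 kept their direction and their side of the adjusted threshold, 6 passed it and 14 changed sign. Of the 26 genes, 20 kept their direction in every alternative that gave a value. Among all tested genes, those past the adjusted threshold numbered 0 with all libraries, 34 in DESeq2 and 169 in limma-voom with sample quality weights. They numbered 7 with no filter on low counts, 0 to 1 without single libraries (1 without Slit2fl/fl replicate 1) and 377 without replicate 1 of both groups. In the fit without Slit2fl/fl replicate 1, 14 of the 26 myeloid genes tested were highest in Slit2th replicate 1. Of the myeloid genes, those higher at an unadjusted p under 0.05 were 13, and 4 with a CPM of at least 1 required in every library, where 12 genes were tested. Those without overlap were 13 of 26, where 8.74% of all tested genes were higher without overlap, and 5 of 12 under that filter. Those highest in Slit2th replicate 1 were 9 of 26, where 17.3% of all tested genes were highest there. They were 14 of 36 with no filter and 5 of 12 under that filter. The shares of all genes without overlap or highest in that library were not computed under the other filters. Leaving out single libraries left 23 to 26 myeloid genes tested and gave 9 to 16 higher. Of all tested genes, 2.43% to 4.85% were higher in those fits. Myeloid genes without overlap were 11 to 19, and those highest in Slit2th replicate 1 were 9 to 14. The shares of all genes were not computed for these last counts, and groups of fewer libraries separate more readily. The ratio of the sum over 36 genes was 1.43 to 1.56 in those fits and 1.41 without replicate 1 of both groups. The count of 9 higher genes came both without Slit2th replicate 1 and without Slit2th replicate 3. Cybb passed the adjusted threshold in DESeq2 and without replicate 1 of both groups, Msr1 in these and in limma-voom, and Spp1 without replicate 1 of both groups. The split of all tested genes at an unadjusted p under 0.05 into higher and lower was 485 and 824, 518 and 775 with DESeq2's size factors and 478 and 800 with library totals.

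Signs changed for 6 genes, whose log2 fold changes without single libraries ranged from -1.25 (Slit2th replicate 3 out) to 0.59 (Slit2th replicate 2 out) for Irf8, -0.0251 (Slit2th replicate 1 out) to 2.09 for Fcer1g, -0.48 (Slit2fl/fl replicate 2 out) to 2.15 for Trem2, -0.68 (Slit2th replicate 1 out) to 5.17 for C1qa, -1.71 (Slit2fl/fl replicate 3 out) to 0.79 for Cyba and -0.25 (Slit2fl/fl replicate 3 out) to 1.17 for Cd68. The highest values of the last 5 genes all came without Slit2fl/fl replicate 1. Irf8 was also at 0.0038 in DESeq2 and 0.41 without Slit2fl/fl replicate 1, and Cyba at 0.57 in limma-voom and 0.87 without replicate 1 of both groups. Trem2 was at -0.31 and Cd68 at -0.01 without Slit2th replicate 1, and Fcer1g at -0.0097 and Trem2 at -0.42 without Slit2fl/fl replicate 3. The cause was not tested.

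Both groups carry the numbers 1 to 3 in the labels, which do not say what a number marks. The deviations from the group means correlated by 0.260, 0.206 and 0.0617 between libraries of the same number, and by -0.274 to 0.221 between libraries of different numbers. Slit2fl/fl replicates 1 and 3 correlated best with the Slit2th library of the same number, and Slit2fl/fl replicate 2 slightly better with Slit2th replicate 3 (0.221). These values do not settle whether the numbers pair the libraries, and in the main fit they were not taken to do so. With the number as a replicate block, edgeR's test called 0 of all genes at the adjusted threshold. At an unadjusted p under 0.05, 15 myeloid genes were higher and 1 lower. Of all 12152 genes, 693 (5.7%, 3.99% without the block) were higher at that level and 921 lower.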

Other observations

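The 10 tested genes with the largest ratio of Slit2th replicate 1 to the highest other library were Hist1h4i, Gm10734, Smim41, Chrna1os, Samhd1, Klhl29, Tmem218, Lig3, Rwdd2b and Get4, by normalized CPM 28.0 to 100.1 times. None is among the 37 myeloid genes. Samhd1, a dNTP hydrolase that is abundant in myeloid cells and present in others, had 13, 10 and 1 counts in Slit2fl/fl and 319, 10 and 9 in Slit2th replicates 1, 2 and 3. Hist1h4i, which encodes a core histone and has near-identical copies, had 13, 6 and 2 counts and 472, 3 and 2 counts. Get4, a subunit of the machinery that delivers tail-anchored proteins to the endoplasmic reticulum, had 23, 2 and 9 counts and 234, 2 and 1 counts, and the DNA ligase gene Lig3 had 32, 13 and 5 counts and 389, 7 and 13 counts. These genes, like Aif1, Ncf4 and C1qa, were at low counts in the other 5 libraries, and their 10-gene list was set by that ratio, so that the values are a description and not a test.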
